A study of Saccharomyces cerevisiae with 3 samples.

Results

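The methylcitrate cycle of budding yeast is described here through its 3 known genes, *CIT3*, *PDH1* and *ICL2*, among 5449 *S. cerevisiae* genes measured. The genes were picked by pathway, and the pathway itself was chosen from the measured signals of these same arrays, in which *CIT3* and *PDH1* were very low in one mutant. Their ratios are therefore given as a description, with no test. Expression was measured in haploid cells cultured to Day 3, and each of 3 genotypes had 1 array of the Affymetrix Yeast Genome 2.0 type. The *rtg3Δ met15Δ* cells lacked both *RTG3* and *MET15*, the *met15Δ* cells lacked *MET15* alone, and the wild-type cells carried both genes. Per the paper's methods, all strains derived from the BY4741/BY4742 background and shared the *his3Δ1*, *leu2Δ0* and *ura3Δ0* alleles, and deletions other than *met15Δ0* and *lys2Δ0* were marked with the *KanMX* cassette. *MET15* encodes the sulfhydrylase that builds homocysteine from sulfide, so that cells without it cannot make methionine in this way, and *RTG3* encodes a transcription factor of the retrograde response. There was no array of cells that lacked *RTG3* alone, so an effect of losing *RTG3* in itself cannot be told apart from one that needs the *met15Δ* background. With 1 array per genotype, the values below carry no error, how far separate cultures differ cannot be seen, and no test was possible.

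The methylcitrate cycle removes propionyl-CoA, a toxic short acyl unit that arises when cells break down threonine, methionine or fatty acids with an odd number of carbons. In the mitochondrion, the enzyme encoded by *CIT3* joins propionyl-CoA to oxaloacetate to give 2-methylcitrate, and can also make citrate from acetyl-CoA. *PDH1* encodes a protein related to bacterial 2-methylcitrate dehydratases, which take up the next step; despite its name it is no part of the pyruvate dehydrogenase complex. *ICL2* encodes the mitochondrial 2-methylisocitrate lyase, which splits the product into succinate and pyruvate. The retrograde response carries signals of mitochondrial state to the nucleus through the paired factors Rtg1 and Rtg3, and *CIT2* and *PDH1* are among the genes it is known to control.

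*CIT3* transcript was nearly lost in cells without *RTG3*. Its signal, on the linear scale, was 215 in *rtg3Δ met15Δ* cells, against 11232 in *met15Δ* cells and 13437 in wild-type cells. The *rtg3Δ met15Δ* array alone was low, and the value there lay under 289. This was the highest signal on that array among the 1746 probe sets given to 1 gene of another species. Probe sets with no or several symbols were not used for it. That highest signal is taken as the background level here and below. It is a strict limit, as the median signal of the 1746 probe sets on that array was 29.5. The fold is therefore given as a lower bound taken against the background level. By this bound *CIT3* was at least 38.8-fold lower in *rtg3Δ met15Δ* than in *met15Δ* cells, and the bound against wild-type cells was 46.5-fold. The log2 ratio between the mutants was -5.71 as deposited, and -5.28 with the low signal raised to the background level.

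*PDH1* was also far lower without *RTG3*, but stayed measurable. It had signals of 888 in *rtg3Δ met15Δ* cells, 10916 in *met15Δ* cells and 9240 in wild-type cells. The *rtg3Δ met15Δ* signal was 8.13% of that in *met15Δ* cells, a 12.3-fold difference (log2 ratio -3.62), and lay 10.4-fold under wild-type. Between the mutants, 12 genes, *CIT3* among them, were lower by a larger fold or by a bound above that of *PDH1*.

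*ICL2* did not share this loss. Its signals were 2562 in *rtg3Δ met15Δ* cells, 2915 in *met15Δ* cells and 4413 in wild-type cells. The mutants lay 1.14-fold apart (log2 ratio -0.19), close to the median log2 ratio of all genes, which was -0.02. As deposited, both mutants had less *ICL2* signal than wild-type, by log2 ratios of -0.78 in *rtg3Δ met15Δ* cells and -0.60 in *met15Δ* cells. Neither reached the 2-fold limit of the study's methods. Scaling each array to its median signal, or to the bacterial control transcripts, took the first of these past 2-fold. With the bacterial controls the second shrank to -0.057.

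**Figure D1:**
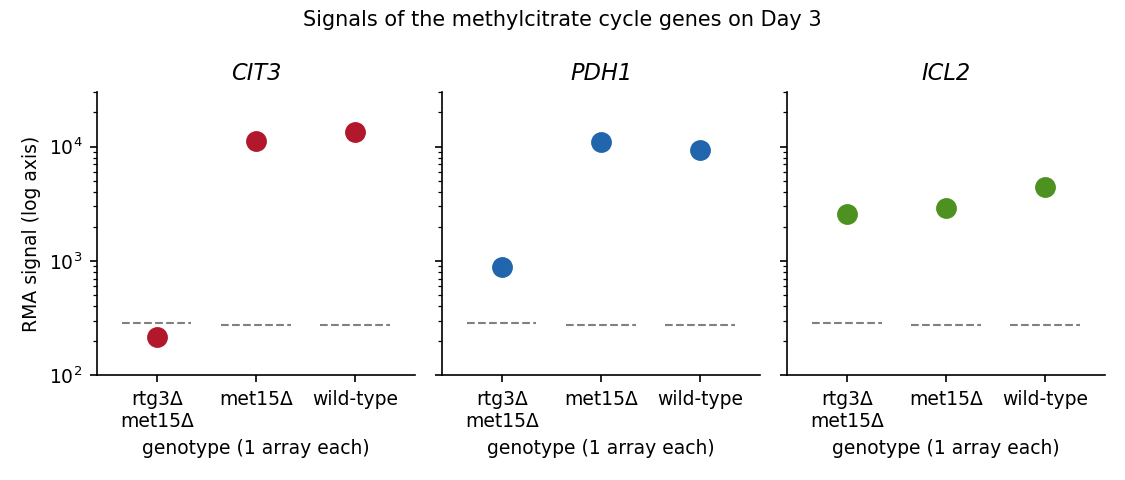
RMA signal on a log axis for *CIT3*, *PDH1* and *ICL2* in *rtg3Δ met15Δ*, *met15Δ* and wild-type cells, with 1 point per array. A dashed line marks the array's highest signal among probe sets given to 1 gene of another species (289, 273 and 273). *CIT3* at 215 falls under its line in *rtg3Δ met15Δ* cells, *PDH1* at 888 stays above it, and *ICL2* spans only 2562 to 4413.

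In the comparison of *rtg3Δ met15Δ* with *met15Δ* cells, 2 of the 3 genes were thus called lower at 2-fold and 0 higher, where 10.6% of all genes were called lower and 10.4% higher. Against wild-type cells, 2 of 3 were again lower in *rtg3Δ met15Δ* cells and 0 higher, where 17.2% of genes were lower and 21.1% higher. As these contrasts were in view when the genes were chosen, and share the *rtg3Δ met15Δ* array, nothing is read from either count.

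Loss of *MET15* by itself left all 3 genes within 2-fold of wild-type. In *met15Δ* over wild-type cells the log2 ratios were -0.26 for *CIT3*, 0.24 for *PDH1* and -0.60 for *ICL2*, where the median over all genes was 0.07. The signs of the first 2 depend on the scaling. *CIT3* turned to 0.28 when arrays were scaled to the bacterial controls, and *PDH1* turned to -0.063 when they were scaled to their medians. In this comparison 0 of the 3 genes were called, where 16.9% of genes were called higher and 11.1% lower. *ICL2* had 66.1% of its wild-type signal in *met15Δ* cells as deposited, but its log2 ratio was -0.057 with the bacterial controls. Relative to the median of all genes the *ICL2* ratio was -0.67 under each scaling.

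The study counted a change as dependent on *RTG3* when a transcript differed at least 2-fold in *met15Δ* from wild-type cells and that difference was at least 2-fold smaller in *rtg3Δ met15Δ* cells. By this rule 0 of the 3 genes qualified, where 5.23% of all genes did. *CIT3* and *PDH1* failed its first condition, as their high level was already there in wild-type cells. They belong instead with the genes that were within 2-fold in *met15Δ* over wild-type cells and at least 2-fold lower in *rtg3Δ met15Δ* than in *met15Δ* cells, which held 371 genes or 6.81% of all, and 2 of the 3 members.

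**Figure D2:**
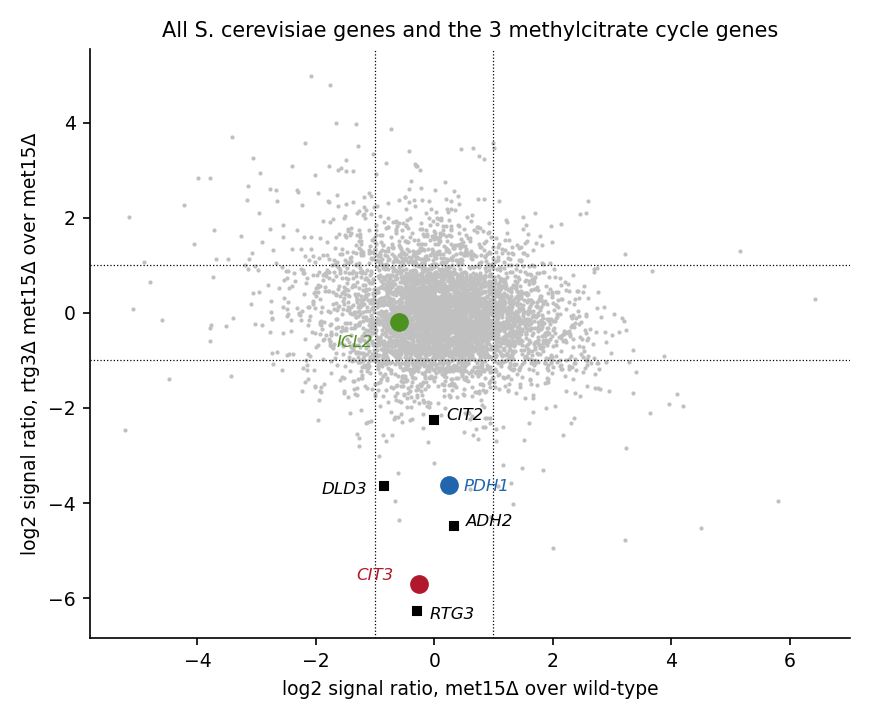
Each grey point is 1 of 5449 genes, with its log2 signal ratio in *met15Δ* over wild-type cells on the x axis and in *rtg3Δ met15Δ* over *met15Δ* cells on the y axis; dotted lines mark 2-fold, coloured points are *CIT3*, *PDH1* and *ICL2*, and black squares are other genes named in the text. The axes share the *met15Δ* array, so no relation between them is read; *CIT3* (-5.71, from a signal under background) and *PDH1* (-3.62) lie far down near the middle of the x axis, and *ICL2* lies within the main cloud.

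The genes of cell mating type also differed between these arrays. Of 6 genes specific to a cells (*MFA1*, *MFA2*, *STE2*, *STE6*, *AGA2* and *BAR1*), 4 were at least 2-fold higher in *rtg3Δ met15Δ* than in *met15Δ* cells. In *met15Δ* over wild-type cells 5 were higher, and none was lower in either comparison. Over all genes, 10.4% were higher and 10.6% lower between the mutants, and 16.9% and 11.1% in *met15Δ* over wild-type cells. *MFA2*, *STE2*, *AGA2* and *BAR1* lay under the background level of 273 in wild-type cells. Their bounds in *met15Δ* over wild-type cells were 15.0-fold, 3.35-fold, 6.95-fold and, short of 2-fold, 1.43-fold. The summed signal of the 6 genes was 32413 in *rtg3Δ met15Δ*, 12811 in *met15Δ* and 1854 in wild-type cells. That of 4 alpha-specific genes (*MF(ALPHA)1*, *MF(ALPHA)2*, *STE3* and *SAG1*) was 5827 in *rtg3Δ met15Δ*, 1917 in *met15Δ* and 3759 in wild-type cells. *MF(ALPHA)2* lay under the background level on all 3 arrays, and *MF(ALPHA)1* did so in *met15Δ* cells. Of these 4 alpha-specific genes, 2 were higher and 0 lower in *rtg3Δ met15Δ* than in *met15Δ* cells. In *met15Δ* over wild-type cells, *STE3* and *MF(ALPHA)1* were lower and 0 higher. For *MF(ALPHA)1* the bound there was only 1.26-fold, short of 2-fold. *MF(ALPHA)1* alone had 2807 in *rtg3Δ met15Δ* and 101 in *met15Δ* cells. The labels give no mating type, and the part of mating type in the ratios of *CIT3*, *PDH1* and *ICL2* was not tested. Signals of the deleted genes matched the genotypes in the labels. *RTG3* had signals of 28.7, 2215 and 2703 in *rtg3Δ met15Δ*, *met15Δ* and wild-type cells, and *MET17*, the annotation's name for *MET15*, had 89.9, 85.0 and 2874 in *rtg3Δ met15Δ*, *met15Δ* and wild-type cells. The median signal of *S. cerevisiae* probe sets was 1457 to 1552 on the 3 arrays.

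Homologues of the members catalyse the matching steps on acetyl-CoA or isocitrate. *CIT1* encodes the main mitochondrial citrate synthase, and its signals of 21193 in *rtg3Δ met15Δ*, 23009 in *met15Δ* and 17391 in wild-type cells were within 2-fold of each other. *CIT2*, for the peroxisomal citrate synthase, resembled *CIT3* in direction but not in size, with 5793 in *rtg3Δ met15Δ*, 27483 in *met15Δ* and 27727 in wild-type cells. The *CIT2* signal was 4.74-fold lower in *rtg3Δ met15Δ* than in *met15Δ* cells, against at least 38.8-fold for *CIT3*. Of the 3 citrate synthase genes, then, 2 were lower without *RTG3* and *CIT1* was not. *ICL1*, which encodes the cytosolic isocitrate lyase of the glyoxylate cycle, had another pattern than *ICL2*. It had signals of 16543 in *rtg3Δ met15Δ*, 20689 in *met15Δ* and 5534 in wild-type cells, so that it was 3.74-fold higher in *met15Δ* cells than in the wild-type, where *ICL2* had a log2 ratio of -0.60. Between the mutants *ICL1* and *ICL2* had log2 ratios of -0.32 and -0.19, and neither was called.

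Upstream of the cycle, propionate is activated by the acetyl-CoA synthetases encoded by *ACS1* and *ACS2*. Both were higher in *met15Δ* cells than in the wild-type, and they parted in *rtg3Δ met15Δ* cells. *ACS1* had signals of 5487 in *rtg3Δ met15Δ*, 15839 in *met15Δ* and 6959 in wild-type cells, 2.89-fold lower in *rtg3Δ met15Δ* than in *met15Δ* cells. *ACS2* had 4339, 3978 and 1595 in *rtg3Δ met15Δ*, *met15Δ* and wild-type cells, and the mutants differed 1.09-fold. *ACO1* encodes aconitase, the family of enzymes that rehydrates the methylaconitate intermediate in bacteria. It was 3.19-fold higher in *met15Δ* cells than in the wild-type and hardly differed between the mutants (log2 ratio -0.05).

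Transcripts of the enzymes that yield a precursor of propionyl-CoA showed no shared direction. Threonine yields 2-oxobutyrate, a source of propionyl-CoA, through the threonine deaminases encoded by *ILV1* and *CHA1*. *ILV1*, the biosynthetic enzyme, had signals of 2366 in *rtg3Δ met15Δ*, 7095 in *met15Δ* and 11567 in wild-type cells, a 3.00-fold lower signal in *rtg3Δ met15Δ* than in *met15Δ* cells. *CHA1*, the catabolic enzyme, had 373, 214 and 885 in *rtg3Δ met15Δ*, *met15Δ* and wild-type cells. Its level in *met15Δ* cells lay at least 3.24-fold under the wild-type one. *CYS3* encodes the cystathionine gamma-lyase, which releases 2-oxobutyrate when sulfur passes to cysteine, and had signals of 2317, 1284 and 1054 in *rtg3Δ met15Δ*, *met15Δ* and wild-type cells, within 2-fold between the mutants and between *met15Δ* and wild-type cells. Of these 3 genes, 1 was lower and 0 were higher in *rtg3Δ met15Δ* than in *met15Δ* cells, where 10.6% of all genes were lower and 10.4% higher. Against wild-type cells, 2 were lower in *rtg3Δ met15Δ* cells and 1, *CYS3*, was 2.20-fold higher. In that comparison 17.2% of all genes were lower and 21.1% higher.

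Of the 5 genes of the pyruvate dehydrogenase complex (*PDA1*, *PDB1*, *LAT1*, *LPD1* and *PDX1*), none passed 2-fold in any comparison. Their log2 ratios in *rtg3Δ met15Δ* over *met15Δ* cells ran between -0.99 and -0.14, with a median of -0.69. Of 3 genes of peroxisomal beta-oxidation, none was called between the mutants (median log2 ratio -0.16), and *POX1*, for the acyl-CoA oxidase, was 2.66-fold lower in *met15Δ* cells than in the wild-type. Downstream, succinate from the *ICL2* step is oxidized by succinate dehydrogenase, and *SFC1* encodes a mitochondrial carrier of succinate. None of the 5 genes of succinate use (*SDH1* to *SDH4* and *SFC1*) was called between the mutants, with a median log2 ratio of 0.30. Over all genes, 10.6% were lower and 10.4% higher between the mutants. *SFC1* was called higher in *met15Δ* cells than in the wild-type, with signals of 4713 and 1350.

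**Figure D3:**
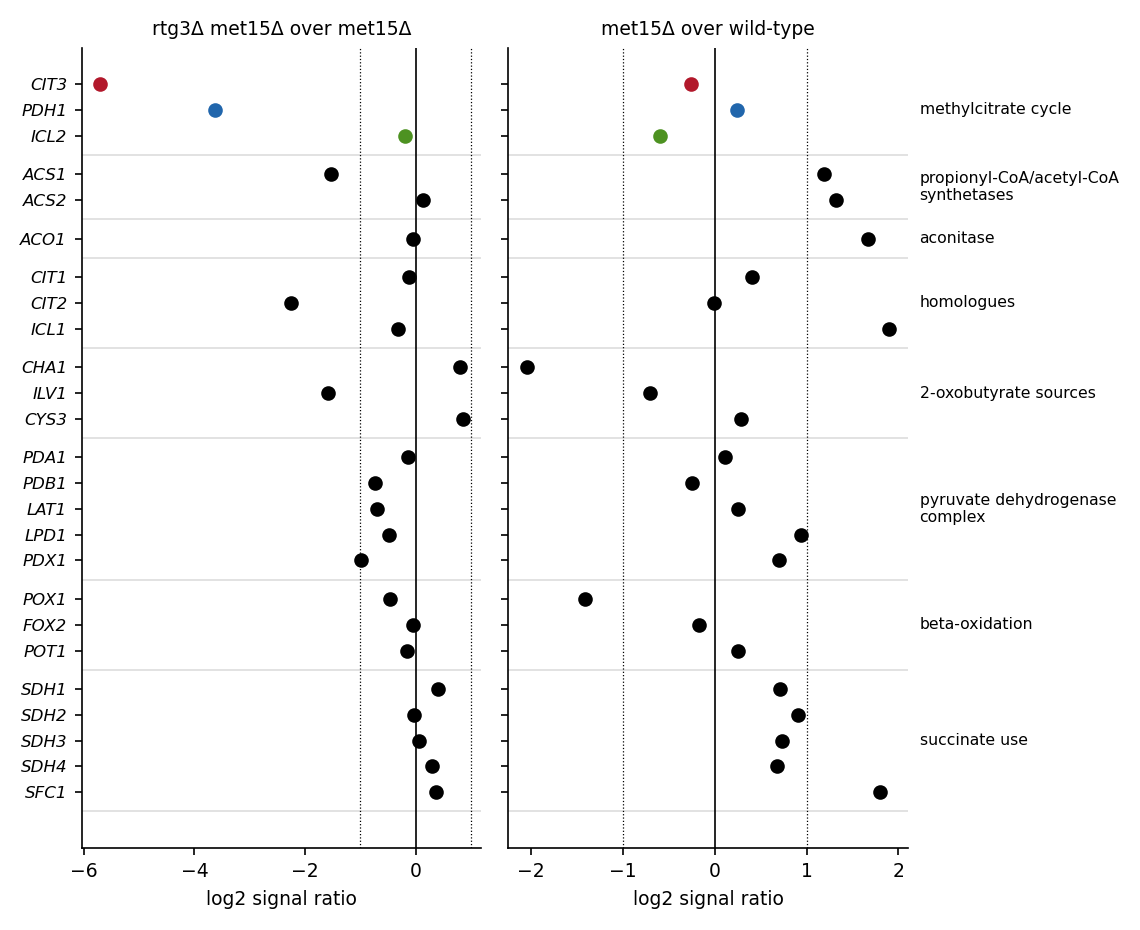
Log2 signal ratio (x axis) of the members in colour and of genes of adjoining steps in black, in *rtg3Δ met15Δ* over *met15Δ* cells on the left and in *met15Δ* over wild-type cells on the right; dotted lines mark 2-fold. On the left *CIT3* (-5.71, from a signal under background) and *PDH1* (-3.62) lie below all other genes plotted, the next being *CIT2* (-2.25), while on the right all 3 members lie within 2-fold.

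Among other known targets of the retrograde response, loss in *rtg3Δ met15Δ* cells was uneven. Of 7 such genes besides *PDH1*, 2 were lower and 0 higher in *rtg3Δ met15Δ* than in *met15Δ* cells, with a median log2 ratio of -0.12, against -0.02 over all genes. In this comparison 10.6% of all genes were lower and 10.4% higher. The 2 lower targets were *CIT2* and *DLD3*, a dehydrogenase of D-lactate and D-2-hydroxyglutarate, which was 12.4-fold lower, close to the 12.3-fold of *PDH1*. *CIT1*, *ACO1*, *IDH1*, *IDH2* and *PYC1* were within 2-fold. *DLD3*, unlike *PDH1*, had unequal signals in *met15Δ* and wild-type cells (5905 and 10629), though within 2-fold. Of 8 regulators of the pathway, *RTG3* alone was called between the mutants. Its partner *RTG1* had signals of 451 in *rtg3Δ met15Δ*, 261 in *met15Δ* and 1028 in wild-type cells, and in *met15Δ* cells it lay at least 3.76-fold under wild-type, a comparison in which *CIT3* and *PDH1* differed by less than 2-fold.

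Genes switched on through the activators Cat8 or Adr1 when glucose runs out did not follow the members as a group. Of 14 such genes, 3 were lower and 2 higher in *rtg3Δ met15Δ* than in *met15Δ* cells (median log2 ratio -0.12), where 10.6% of all genes were lower and 10.4% higher. In *met15Δ* over wild-type cells, 8 of the 14 were higher and 1 lower (median 1.24, against 0.07 over all genes), where 16.9% of all genes were higher and 11.1% lower. The 3 genes lower between the mutants were *ADH2*, the alcohol dehydrogenase that uses ethanol (587, 13192 and 10507 in *rtg3Δ met15Δ*, *met15Δ* and wild-type cells), *ADY2*, an acetate transporter (709, 11477 and 4574 in *rtg3Δ met15Δ*, *met15Δ* and wild-type cells), and *ACS1*. Of these, *ADH2* was within 2-fold in *met15Δ* over wild-type cells, as were *CIT3* and *PDH1*. *FBP1* and *MDH2*, which serve gluconeogenesis, were the 2 higher ones, at 3.63-fold and 2.43-fold. Among 6 regulators of carbon source use, *MIG1*, a glucose repressor, and *SNF1*, the kinase that relieves repression, were lower in *rtg3Δ met15Δ* than in *met15Δ* cells, with log2 ratios of -1.67 and -1.04, while *CAT8* (-0.0045) and *ADR1* (0.34) were not called.

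The 3 members lie close together in the genome. In the gene order of the R64 reference *CIT3* and *PDH1* are next to each other, and 3 protein-coding genes and 1 tRNA gene separate *PDH1* from *ICL2*. None of the 10 measured genes within 4 places of a member fell as far as *CIT3* or *PDH1* in *rtg3Δ met15Δ* cells. Of these, 1 was at least 2-fold lower in *rtg3Δ met15Δ* than in *met15Δ* cells and 0 were higher, with a median log2 ratio of -0.30. Over all genes, 10.6% were lower and 10.4% higher in this comparison. The 1 lower gene was *HAA1*, an activator of the response to weak organic acids, with signals of 1321 in *rtg3Δ met15Δ*, 2704 in *met15Δ* and 2527 in wild-type cells. *HAT1*, a histone acetyltransferase gene and the direct neighbour of *CIT3*, had the same signal of 595 in both mutants. *YPR003C*, the next protein-coding gene past *PDH1*, had a log2 ratio of -0.68. *AIM45*, for the alpha subunit of the electron transfer flavoprotein, had -0.79, and *HAL1*, beside *ICL2*, had 0.97. Against wild-type cells, 2 of the 10 neighbours were lower in *rtg3Δ met15Δ* cells, *AIM45* (log2 ratio -1.57) and *SUT2* (-1.56), and 0 were higher. In that comparison 17.2% of all genes were lower and 21.1% higher.

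**Figure D4:**
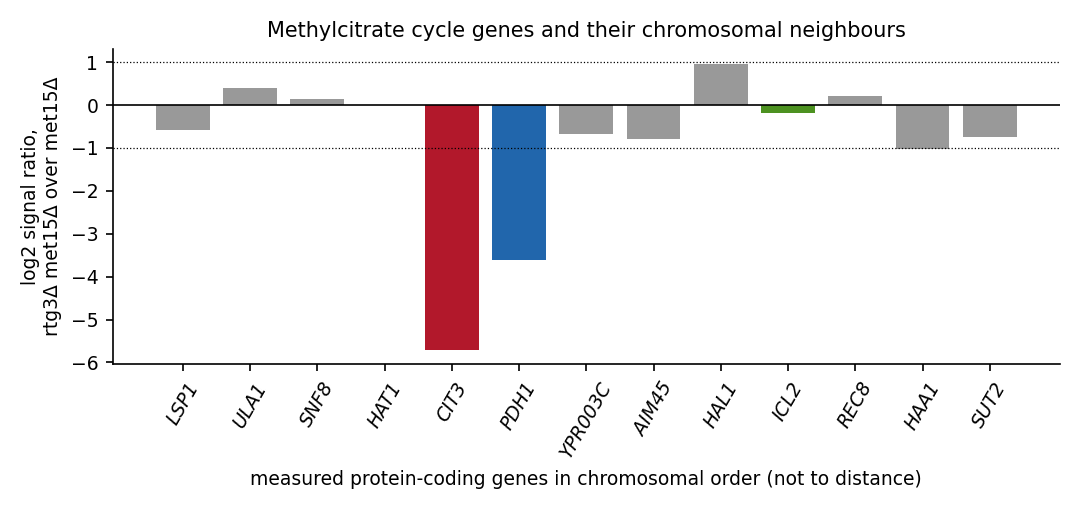
Bars give the log2 signal ratio in *rtg3Δ met15Δ* over *met15Δ* cells for 13 measured protein-coding genes in their chromosomal order, not drawn to distance, with the members in colour, neighbours in grey and dotted lines at 2-fold. *CIT3* and *PDH1* reach -5.71 (from a signal under background) and -3.62, while the neighbours lie between -1.03 and 0.97.

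The members were also set against all other genes by their pattern over the 3 arrays. Likeness was the Euclidean distance between log2 signals after each gene was centred on its own mean, over 3 values per gene, so that only shape and not level counts. *CIT3* and *PDH1* were 1.94 apart, and *ICL2* was 4.38 from *CIT3* and 2.53 from *PDH1*. Distances from *CIT3* rest on its signal under background in *rtg3Δ met15Δ* cells. As deposited, the genes listed nearest to it were the deleted *RTG3* (0.47), itself under background on that array, then *DIP5* (0.99), which encodes a permease for acidic amino acids, *GPP1* (1.29), for a glycerol phosphatase, *ADH2* (1.30) and *DLD3* (1.51). *DIP5* had signals of 298 in *rtg3Δ met15Δ*, 6123 in *met15Δ* and 9242 in wild-type cells.

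*PDH1* had closer company. The nearest gene was *PHO89*, a sodium-coupled phosphate transporter gene, at 0.13, with signals of 1879 in *rtg3Δ met15Δ*, 25060 in *met15Δ* and 22230 in wild-type cells. After it came *YAT2*, a carnitine acetyltransferase gene (0.27), *THI73*, a putative permease gene (0.33), *RRT12*, a spore wall protease gene under background in *rtg3Δ met15Δ* cells (0.57), and *BAP2*, a permease gene for branched-chain amino acids (0.62). *YAT2* had 1659, 21480 and 14171 in *rtg3Δ met15Δ*, *met15Δ* and wild-type cells. The pattern of *ICL2* was common, with 972 genes within a distance of 0.5, against 3 for *PDH1* and 1, *RTG3*, for *CIT3*. Its nearest genes were *MRS6*, *PEP12*, *NOP6*, *POP2* and *SSL1*, at 0.014 to 0.039. When low signals were raised to the background level, 4 of the 5 nearest genes were the same for each member. *RTG3* then left the genes nearest to *CIT3*, of which *DIP5* was the first, and came among those nearest to *PDH1* (0.51) in the place of *RRT12*.

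The choice of scaling shifts every log2 ratio of a comparison by the same amount. The deposited signals were used as they stood. Against them, scaling to the bacterial control transcripts moved all ratios by -0.77 in *rtg3Δ met15Δ* over *met15Δ*, by 0.54 in *met15Δ* over wild-type and by -0.23 in *rtg3Δ met15Δ* over wild-type cells, and scaling to the array medians moved them by -0.19, -0.30 and -0.50. As no shift reached the 2-fold limit, no gene called here turned its direction, though calls near the limit can be lost or gained. Between the mutants, 2.79% of genes were then called higher and 39.8% lower with the bacterial controls, against 10.4% and 10.6% with the deposited signals. For *met15Δ* over wild-type cells the split was 33.7% higher and 4.83% lower with the bacterial controls, and 10.4% and 17.5% with the array medians, against 16.9% and 11.1%. For *rtg3Δ met15Δ* over wild-type cells it was 15.7% and 22.4%, and 11.2% and 28.8%, against 21.1% and 17.2%. *CIT3* and *PDH1* stayed called lower without *RTG3* in each of these, with log2 ratios to *met15Δ* cells of -6.48 to -5.28 and of -4.39 to -3.53 over the settings tried.

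**Figure D5:**
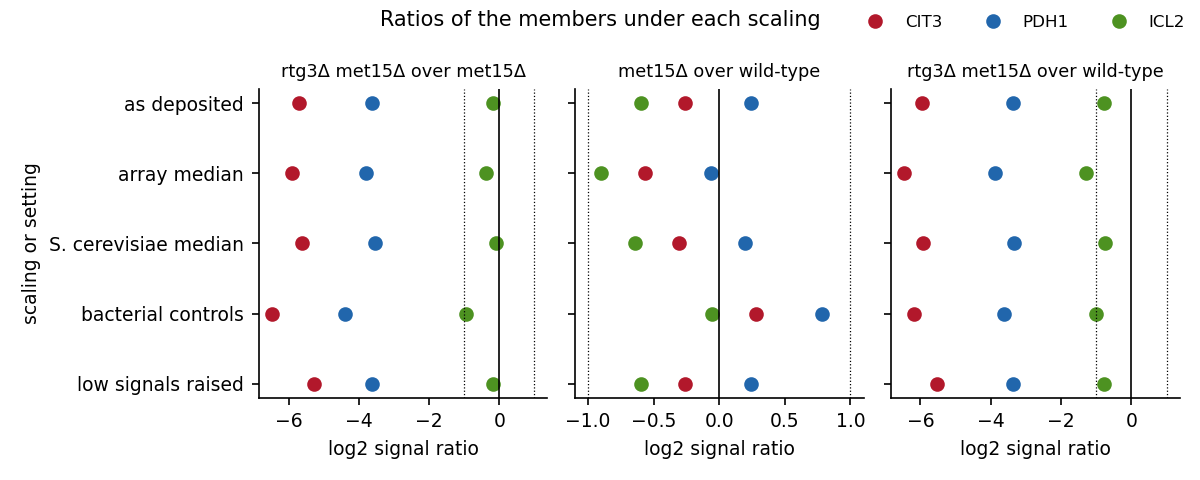
Log2 signal ratio (x axis) of *CIT3*, *PDH1* and *ICL2* in the 3 comparisons, with the signals as deposited, under 3 other scalings and with low signals raised to background (y axis); dotted lines mark 2-fold. *CIT3* and *PDH1* stay below -3 in both comparisons of *rtg3Δ met15Δ* cells under every setting, while *ICL2* crosses -1 in *rtg3Δ met15Δ* over wild-type cells with the array medians (-1.28) and the bacterial controls (-1.02).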

How the data were processed

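Total RNA from yeast grown for 3 days was hybridized to Affymetrix Yeast Genome 2.0 arrays, 1 per genotype. Using RMA (RMAExpress 1.0.4), the authors turned the background-corrected scans into the deposited intensity values on the linear scale, 1 per probe set; the sources used here do not give the options of the normalization, and the submitters' processing notes name RMA without a version. The labels write the double mutant as *rtg3Δ met15Δ*, with its deletions in the other order than the paper.

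GEO's platform annotation gave the symbols of the 10928 probe sets, which were matched by gene number to a table of assembly R64, which placed 5498 in 5449 *S. cerevisiae* genes and 1746 in another species; 3684 with no or several symbols were left out. Each member has 1 probe set. Signals of a gene's probe sets were averaged as log2 values, with no pseudocount and no filter, and ratios were called at 2-fold. Where a signal lay under the highest other-species signal of its array, the fold is a lower bound. Python 3.11.15, pandas 2.3.3 and numpy 2.4.6 were used, and the code was tested on simulated data. The number of arrays limits the precision, and no test was made. Named genes were the members, the 5 genes nearest to each in pattern, and lists of adjoining steps, targets, regulators, neighbours and mating-type markers. The members and lists were chosen with earlier results of these data known. Promoter and protein sequences were not used here. Alternatives were 3 scalings, raised low signals and fold limits of 1.5 and 3.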

Additional observations from a re-analysis of the deposited data

How the results depend on the processing

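With 1 array per genotype no replicate could be left out, and no alternative with single probe sets was run, since each member has 1. *CIT3* and *PDH1* stayed at least 2-fold lower in *rtg3Δ met15Δ* cells, against both other genotypes, under all 3 scalings, with low signals raised and at fold limits of 1.5 and 3. *ICL2* passed 2-fold in *rtg3Δ met15Δ* over wild-type cells with array medians (-1.28) and with bacterial controls (-1.02), against -0.78 as deposited; relative to the median of all genes it was -0.87 under each. At a limit of 1.5-fold, 1 member (*ICL2*) was lower in *met15Δ* cells than in the wild-type, against 0 at 2-fold. In *met15Δ* over wild-type cells *CIT3* was 0.28 with bacterial controls, against -0.26, and *PDH1* -0.063 with array medians, against 0.24; relative to the median of all genes they were -0.33 and 0.17 under each scaling. The 21 bacterial control probe sets had median log2 ratios of 0.78, -0.62 and 0.24 in *rtg3Δ met15Δ* over *met15Δ*, *met15Δ* over wild-type and *rtg3Δ met15Δ* over wild-type cells. Whether equal amounts of them were added is not given in the sources used here. No paired analysis was possible because each genotype has 1 array.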

Other observations

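Besides *CIT3*, 11 genes were lower than *PDH1* in *rtg3Δ met15Δ* over *met15Δ* cells by their fold or its bound, and they were looked up after their values were seen. *ADH2*, *DIP5*, *GPP1*, *PHO89*, *YAT2* and *DLD3* were within 2-fold in *met15Δ* over wild-type cells, with log2 ratios between -0.85 (*DLD3*) and 0.60 (*YAT2*). Others were higher in *met15Δ* cells. *THI4*, for thiazole synthesis, had signals of 602 in *rtg3Δ met15Δ*, 16495 in *met15Δ* and 1765 in wild-type cells, and *PDC6*, for a minor pyruvate decarboxylase, had 896, 13844 and 248 in *rtg3Δ met15Δ*, *met15Δ* and wild-type cells. *ARO10*, for a decarboxylase of 2-oxo acids from amino acids, had 846, 10482 and 4976 in *rtg3Δ met15Δ*, *met15Δ* and wild-type cells. *YDL218W* and *ADY2* were the remaining ones.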
